A study of Mus musculus with 12 samples.

Results

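The complement and lectin pathway genes described here are a list of 33 genes for the recognition proteins, proteases, terminal components, regulators and receptors of complement. A gene was matched to an array feature (a transcript cluster) annotated to that gene alone, by current symbol or synonym, and the cluster with the highest mean over the 12 arrays was used. A cluster was found for 31 of the 33 genes, out of 19938 genes with a cluster on the array. They fall into 19 genes made mainly by hepatocytes, 6 made mainly by macrophages and other leukocytes, and 6 made by other or several liver cell types. C3 and Cfd are not analysed here.

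Transcripts were measured on Affymetrix arrays in whole liver of mice aged 2 weeks, as part of a study of pathways that precede cholestatic injury. The 4 genotypes had 3 arrays each, marked A, B and C. Floxed mice (Stat3Fl/Fl) carried loxP-flanked alleles of Stat3, the transcription factor that acts downstream of interleukin-6 and other cytokines. Stat3Δhc mice had a conditional deletion of Stat3, and the other two genotypes carried the floxed or the deleted Stat3 alleles on an Mdr2-/- background (Stat3Fl/FlMdr2-/- and Stat3Δhc Mdr2-/-, here Mdr2-/- floxed and Mdr2-/- Stat3Δhc). Mdr2 is the product of Abcb4, the phospholipid transporter of the bile canaliculus, whose loss is used as a mouse model of sclerosing cholangitis. All 4 genotypes carried floxed or recombined Stat3 alleles, and wild-type liver was not among the arrays used. The labels name neither the Cre driver nor the cells in which it acts. Nor do they say that the arrays came from different animals, so p-values measure only the spread between these arrays.

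Complement is a cascade of plasma proteases. The classical pathway starts when C1q binds antibody or other ligands, and the lectin pathway starts when mannose-binding lectins, ficolins or collectins bind sugars; both cleave C4 and C2 through the proteases C1r and C1s or the MASPs. The alternative pathway runs through factor B and properdin, and all routes meet at C3 and C5 and end in the membrane attack complex of C5b to C9. Most circulating complement proteins are secreted by hepatocytes and several are acute phase proteins, whereas C1q and properdin come mainly from macrophages and other myeloid cells.

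The log2 value of Stat3 was 9.19 to 9.54 in the 6 arrays with floxed alleles and 7.69 to 8.12 in the 6 with deleted alleles, and Abcb4 read 10 to 10.28 without and 8.87 to 9.36 with the Mdr2 knockout, so both targeted genes followed the titles. The mean of the 11 hepatocyte markers with a cluster was 12.14 to 12.49 in floxed, 12.58 to 12.65 in Stat3Δhc, 12.25 to 12.31 in Mdr2-/- floxed and 12.44 to 12.65 in Mdr2-/- Stat3Δhc liver. Y-linked transcripts were high and Xist low in the 6 arrays without the knockout and in arrays B and C of Mdr2-/- Stat3Δhc. The reverse held in array A of Mdr2-/- Stat3Δhc and in all 3 of Mdr2-/- floxed, so in floxed liver Mdr2 loss and this pattern cannot be told apart. The mean of 10 skeletal muscle markers was 8.86 to 9.63 without the knockout and 5.42 to 5.84 with it. The mean of 9 exocrine pancreas markers was 5.72 to 10.23 without the knockout and 5.52 to 5.93 with it. The muscle markers and Mdr2 loss cannot be told apart.

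The promoter windows of 4 of the members are shown first, to place the lectins, a terminal component and a protease beside the STAT motif. C8a, Mbl2 and Colec11 were called in at least 1 comparison below, and Masp2 in none. The 4 were picked and do not stand for all members, whose motif counts follow. Each window holds 250 bases before and 50 bases from the transcription start, 5′ to 3′ on the strand of the gene, from RefSeq (build GRCm38.p6). Capitals mark the palindromic motif TTCNNNGAA, the core of the STAT binding element, which reads the same on both strands. C8a encodes the alpha chain of complement C8 and Mbl2 encodes mannose-binding lectin C. Colec11 encodes collectin-11 (CL-K1), and Masp2 the protease that cleaves C4 and C2 in the lectin pathway. The windows lie at chr4:104876349-104876648 (minus strand) for C8a, chr19:30232678-30232977 (plus strand) for Mbl2, chr12:28623281-28623580 (minus strand) for Colec11 and chr4:148602294-148602593 (plus strand) for Masp2.
C8a: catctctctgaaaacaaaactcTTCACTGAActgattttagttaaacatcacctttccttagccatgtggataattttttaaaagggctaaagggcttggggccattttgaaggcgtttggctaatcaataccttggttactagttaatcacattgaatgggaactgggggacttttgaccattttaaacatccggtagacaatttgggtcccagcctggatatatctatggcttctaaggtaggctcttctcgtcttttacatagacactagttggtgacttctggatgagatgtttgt
Mbl2: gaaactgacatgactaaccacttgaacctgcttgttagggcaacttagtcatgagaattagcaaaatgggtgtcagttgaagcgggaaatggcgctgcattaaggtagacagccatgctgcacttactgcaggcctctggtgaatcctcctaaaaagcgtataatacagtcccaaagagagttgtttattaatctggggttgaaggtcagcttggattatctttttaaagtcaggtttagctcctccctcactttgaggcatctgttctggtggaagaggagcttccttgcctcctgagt
Colec11: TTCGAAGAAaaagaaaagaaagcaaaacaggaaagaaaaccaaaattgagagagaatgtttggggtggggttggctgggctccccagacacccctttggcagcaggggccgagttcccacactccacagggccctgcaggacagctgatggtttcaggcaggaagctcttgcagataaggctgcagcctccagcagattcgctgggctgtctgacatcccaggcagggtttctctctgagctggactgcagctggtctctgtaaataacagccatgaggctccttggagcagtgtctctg
Masp2: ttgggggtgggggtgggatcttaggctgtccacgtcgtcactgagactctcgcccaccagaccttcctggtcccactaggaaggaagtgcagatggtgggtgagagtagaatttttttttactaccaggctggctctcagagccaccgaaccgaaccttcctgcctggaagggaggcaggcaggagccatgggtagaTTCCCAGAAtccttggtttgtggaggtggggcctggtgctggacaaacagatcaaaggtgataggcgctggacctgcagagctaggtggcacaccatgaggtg

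The C8a window held the motif once, with its first base at -228 from the start, and the Colec11 window held it once at -250. The Masp2 window held it at -53, while the Mbl2 window held none. A window was given for 22 of the 31 genes, in 23 windows, and 6 of these held the motif, against 2726 of all 32851 windows (8.3%). The other 3 with the motif were C7, C1ra and Vtn. Of the 9 members that were lower after Stat3 deletion (below), 4 had a window and 2 of them the motif, and of the 18 other members with a window 4 had it. Masp2, with the motif, did not pass the test in any comparison, and Mbl2, without it, was lower in both Stat3 comparisons. A match is a description of these letters only, and the absence of a match says nothing about distal sites.

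The log2 values below are on the scale of robust multiarray averaging (RMA), on which a difference of 1 is a 2-fold change within a gene; values of different genes are not comparable. A gene was tested when it exceeded the 40th percentile of its array (5.46 to 5.63) in at least 3 arrays, which held for 30 of the 31 members. C7, a terminal component made by mesenchymal and endothelial cells, read 4.53 to 5.48 in 11 arrays and 6.01 in array A of Mdr2-/- Stat3Δhc, and was not tested. C5ar1 exceeded the percentile in all 6 Mdr2-/- arrays but in 4 of the 6 others, and 29 members did so in all 12 arrays. Calls are limma adjusted p-values under 0.05, with Benjamini-Hochberg adjustment over 13977 genes. In all, 17 of the 30 members (56.7%) were called in at least 1 of the 5 comparisons and 13 in none, against 27.1% of all genes tested called in at least 1.

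**Figure D1:**
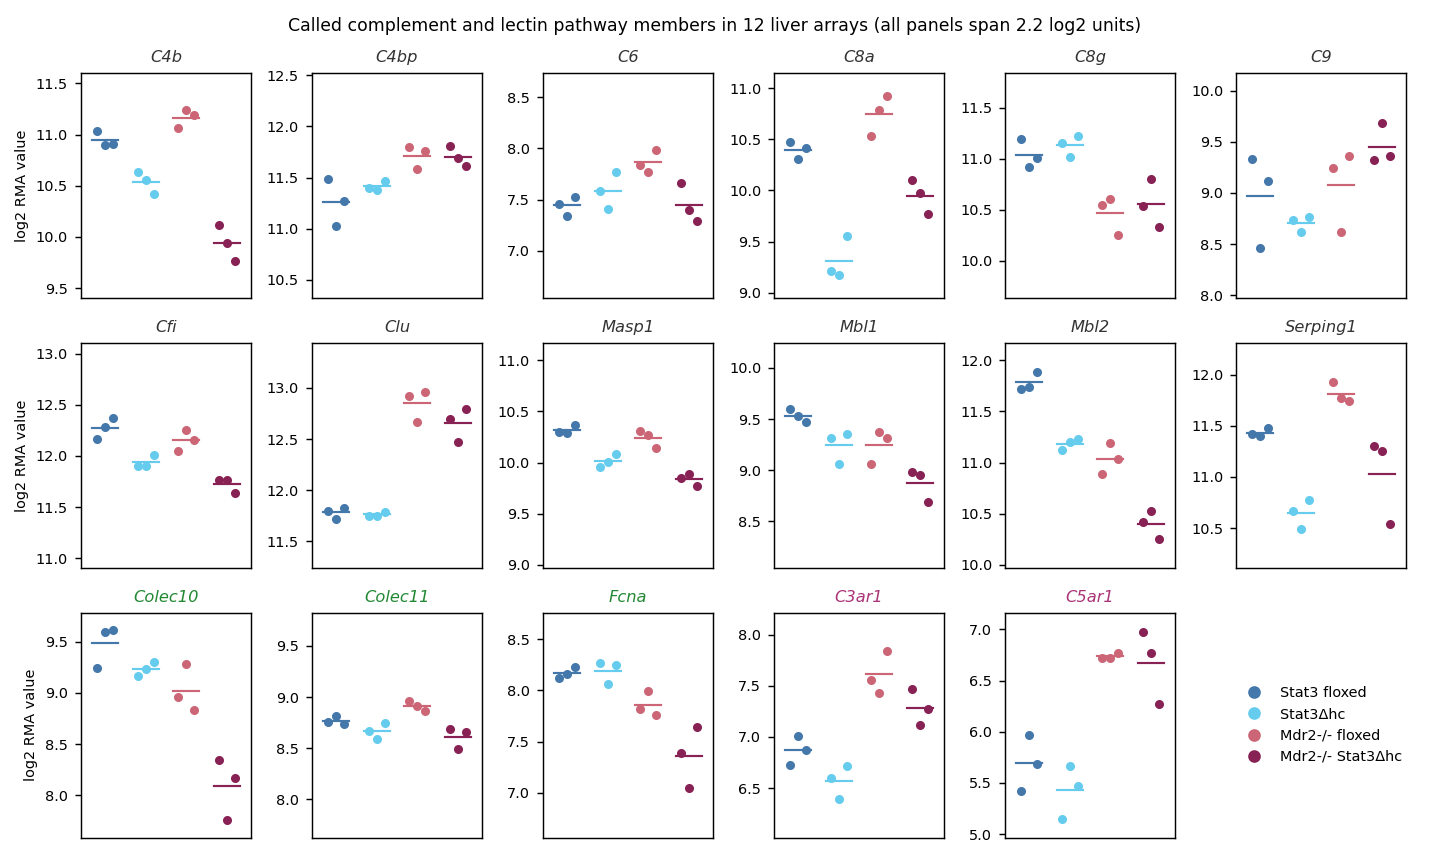
Log2 RMA values (vertical axis) of the 17 called members in the 12 arrays, by genotype (colour); points are arrays A, B and C and the lines are means of 3. Gene names are black for hepatocyte-made, green for other or several cell types and purple for leukocyte-made. The 4 genotypes do not overlap for C8a, where floxed and Mdr2-/- floxed are close. Clu, C3ar1 and C5ar1 are higher in all 6 Mdr2-/- arrays than in the other 6. The share of all genes that separate in these ways was not counted.

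Without the Mdr2 knockout, 3 hepatocyte-made members were lower in Stat3Δhc than in floxed liver and none was higher. These were C8a, the C1 inhibitor gene Serping1 and Mbl2. The percentage of all genes tested that were called was 2.58% (1.51% higher, 1.07% lower). Of the 30 members tested, 23 had a negative log2 change, with a median of -0.22 against -0.01 over all genes. The median was -0.25 for the 19 hepatocyte-made members, -0.25 for the 6 leukocyte-made members, of which none was called, and -0.04 for the 5 tested members of other or several cell types. The hepatocyte markers had a median of 0.11, with 8 of 11 positive and 1 called higher (Cps1). Cps1, Tdo2, G6pc and Tat had 0.44 to 0.86, and Pck1, Hnf4a and Serpina1c 0.1 to 0.16. Alb, Ttr, Apoa1 and Apoh had -0.06 to 0.05. Macrophage markers had a median of -0.29 with 1 of 12 positive, and neutrophil markers -0.44 with 0 of 6 positive, and none of either was called. The part of these cell markers in the member values was not tested. In whole liver, fewer cells of a type and less RNA per cell cannot be told apart.

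C8a, whose product inserts into the target membrane as part of the C8 complex, read 10.47, 10.31 and 10.41 in floxed arrays A, B and C and 9.21, 9.17 and 9.55 after deletion. This is a 2.13-fold lower level (log2 change -1.09, SE 0.13, limma adjusted p = 0.000902). On the knockout background it read 10.53, 10.79 and 10.92 in Mdr2-/- floxed and 10.1, 9.97 and 9.77 in Mdr2-/- Stat3Δhc liver. The 4 genotypes thus did not overlap for C8a, with Stat3Δhc lowest and Mdr2-/- floxed highest. Floxed and Mdr2-/- floxed liver were close, and their difference was not called (0.35, SE 0.13, limma adjusted p = 0.0966). Here and below, lack of overlap describes the same arrays that entered the tests. Its share over all genes was not counted.

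Serping1 encodes the inhibitor of C1r, C1s and the MASPs. It read 11.42, 11.4 and 11.48 in floxed and 10.67, 10.49 and 10.77 in Stat3Δhc liver, a 1.73-fold lower level (-0.79, SE 0.16, limma adjusted p = 0.0253). Mbl2 read 11.72, 11.74 and 11.89 in floxed and 11.12, 11.2 and 11.23 in Stat3Δhc liver, 1.51-fold lower (-0.6, SE 0.1, limma adjusted p = 0.00959). Neither gene overlapped between these genotypes. The C8a call held when any 1 of the 12 arrays was left out. The calls of Mbl2 and Serping1 were both lost without array C of floxed or array A of Stat3Δhc liver, where C8a alone remained. Those fits called 0.495% and 0.738% of all genes, against 2.58% with all 12 arrays. Serping1 also lost its call without array B of floxed and without B or C of Stat3Δhc liver, and was thus called in 7 of 12 such fits (adjusted p up to 0.126) against 10 of 12 for Mbl2. Over the leave-one-out fits the log2 change was -0.63 to -0.54 for Mbl2 and -0.85 to -0.71 for Serping1.

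Several hepatocyte-made members lay just outside the threshold in this comparison. C4b, a C4 gene of the classical and lectin pathways, had a log2 change of -0.42 (SE 0.1, limma adjusted p = 0.0513). The corresponding values were -0.34 (SE 0.09, adjusted p = 0.0583) for Cfi, the protease that degrades C3b and C4b, and -0.3 (SE 0.08, adjusted p = 0.0593) for the lectin pathway protease Masp1. For each of these genes the 3 floxed arrays read above the 3 Stat3Δhc arrays. The share of all genes separated in this way was not counted, so it adds nothing to the tests. With the filter at the 60th percentile, with cyclic loess scaling or with a trended robust prior C4b, Cfi and Masp1 passed, which gave 6 called members. These fits called 4.87%, 3.18% and 3.44% of all genes, against 2.58%.

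On the Mdr2 knockout, 9 members were lower in Stat3Δhc liver and none was higher. These were 6 hepatocyte-made genes (C4b, C8a, Serping1, Mbl2, Cfi and Masp1) and 3 lectin genes of several cell types (Colec10, Fcna and Colec11). Over all genes tested 5.77% were called, 1.87% higher and 3.9% lower, or 261 higher and 545 lower; with cyclic loess scaling this split was 466 and 444, while the members called there were 7 lower and none higher. The median log2 change was -0.26 over the 30 members and -0.03 over all genes. By group it was -0.32 for hepatocyte-made members, -0.19 for leukocyte-made members, of which none was called, and -0.3 for the other group. Hepatocyte markers had a median of 0.15, with 7 of 11 positive and 1 called higher (Tdo2), neutrophil markers -0.23 and macrophage markers -0.34, and their part was not tested.

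**Figure D2:**
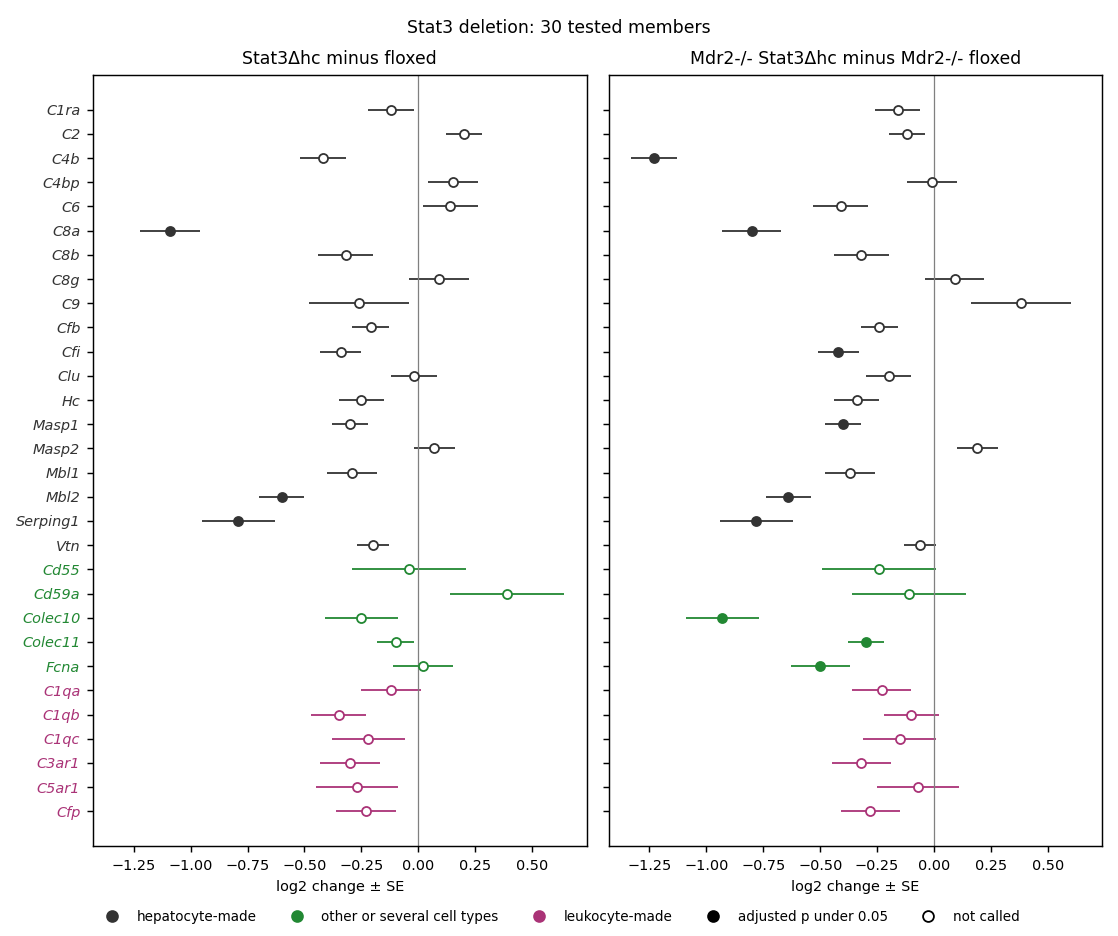
Log2 change with its standard error (horizontal axis) of the 30 tested members after Stat3 deletion, without (left) and with (right) the Mdr2 knockout, 3 arrays against 3. Filled points passed the limma test at adjusted p under 0.05; the 3 genes called on the left, C8a, Mbl2 and Serping1, are also called on the right, where C4b and Colec10 have the most negative values.

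The classical and lectin pathway component C4b had the largest change. It read 11.06, 11.24 and 11.19 in Mdr2-/- floxed and 10.12, 9.94 and 9.76 in Mdr2-/- Stat3Δhc liver, 2.34-fold lower (-1.23, SE 0.1, limma adjusted p = 5.89e-05). Without the knockout its values were 11.04, 10.9 and 10.91 in floxed and 10.63, 10.56 and 10.42 in Stat3Δhc liver. The arrays of the 4 genotypes did not overlap, with Mdr2-/- Stat3Δhc lowest. Floxed liver reached 11.04 and Mdr2-/- floxed liver began at 11.06, a difference that was not called (limma adjusted p = 0.208). C4b lies on chromosome 17 beside its near-identical paralog C4a, with 1 protein-coding gene between them, and the probes of either cluster may read both. C4a read 8.49, 8.55 and 8.68 in Mdr2-/- floxed and 7.64, 7.52 and 7.48 in Mdr2-/- Stat3Δhc liver (-1.02, SE 0.09, limma adjusted p = 8.7e-05), so the fall is reported for the pair and not for one of the paralogs. C2 and Cfb, which neighbour each other on the same chromosome with 5 protein-coding genes between Cfb and C4b, were not called: C2 had -0.12 (SE 0.08, adjusted p = 0.348) and Cfb -0.24 (SE 0.08, adjusted p = 0.0734).

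Among the regulators, Serping1 read 11.93, 11.77 and 11.74 in Mdr2-/- floxed and 11.3, 11.25 and 10.54 in Mdr2-/- Stat3Δhc liver, 1.72-fold lower (-0.78, SE 0.16, limma adjusted p = 0.0181). Array C stood below the other two of its genotype, and without it the log2 change was -0.53. The call was lost without array A or array B of Mdr2-/- floxed liver (adjusted p at most 0.0535). Cfi read 12.05, 12.25 and 12.16 against 11.77, 11.77 and 11.64, 1.34-fold lower (-0.42, SE 0.09, limma adjusted p = 0.016), and its groups did not overlap. C4bp, the plasma inhibitor of the C4b-containing convertase, had -0.01 (SE 0.11, adjusted p = 0.956), Vtn, the inhibitor vitronectin, -0.06 (SE 0.07, adjusted p = 0.604), and Clu, the inhibitor clusterin, -0.2 (SE 0.1, adjusted p = 0.215).

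The terminal component C8a was 1.75-fold lower (-0.8, SE 0.13, limma adjusted p = 0.00502). Its neighbour C8b, which encodes the beta chain and lies beside it on chromosome 4 with no protein-coding gene between, had -0.32 (SE 0.12) in both Stat3 comparisons (adjusted p = 0.174 without and 0.106 with the knockout). C8g, the gamma chain on chromosome 2, had 0.09 (SE 0.13) in both (adjusted p = 0.794 and 0.679). Of the 3 chains of the C8 complex only the alpha chain passed the test, and differences between the chains were not tested. Of the other terminal genes, C6 had -0.41 (SE 0.12, adjusted p = 0.0555), Hc, the mouse C5 gene, -0.34 (SE 0.1, adjusted p = 0.0699), and C9 0.38 (SE 0.22, adjusted p = 0.265).

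In the lectin pathway, Mbl2 read 10.89, 11.19 and 11.04 in Mdr2-/- floxed and 10.42, 10.53 and 10.25 in Mdr2-/- Stat3Δhc liver, 1.56-fold lower (-0.64, SE 0.1, limma adjusted p = 0.00473). Masp1, the protease that activates Masp2, read 10.31, 10.27 and 10.14 against 9.85, 9.89 and 9.77 and was 1.32-fold lower (-0.4, SE 0.08, limma adjusted p = 0.0128). Both genes were lower in each deleted array than in each floxed array of this background. Mbl1, mannose-binding lectin A, had -0.37 (SE 0.11, adjusted p = 0.0676), and Masp2 had 0.19 (SE 0.09, adjusted p = 0.183).

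Colec10, which encodes collectin-10 (CL-L1), the partner of collectin-11, read 8.96, 9.28 and 8.83 in Mdr2-/- floxed and 8.34, 7.76 and 8.17 in Mdr2-/- Stat3Δhc liver, 1.91-fold lower (-0.93, SE 0.16, limma adjusted p = 0.00584). Fcna, the plasma ficolin-A, read 7.82, 7.99 and 7.76 against 7.39, 7.05 and 7.64, 1.41-fold lower (-0.5, SE 0.13, limma adjusted p = 0.0406). Colec11 read 8.96, 8.91 and 8.86 against 8.69, 8.49 and 8.66, 1.23-fold lower (-0.3, SE 0.08, limma adjusted p = 0.0474). The groups did not overlap for any of the 3 lectins, which describes the arrays that gave these calls. The Fcna call was kept in 5 of 12 fits that left out 1 array, with log2 changes of -0.64 to -0.34. The Colec11 call was kept in 1 of 12, with -0.34 to -0.24.

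Markers of hepatic stellate cells, the vitamin A storing pericytes of the liver, moved in part with these lectins. The mean of 10 stellate markers was 8.91 to 9.11 in the 6 Mdr2-competent arrays, 8.81 to 8.88 in Mdr2-/- floxed and 8.42 to 8.54 in Mdr2-/- Stat3Δhc liver. This mean includes Des, which read 7.61 to 8.24 without the knockout and 6.16 to 6.4 with it, and fell as the skeletal muscle markers did. On the knockout 4 of the 10 were called lower after Stat3 deletion (Ecm1, Lrat, Reln and Rgs5) and none higher, against 3.9% and 1.87% of all genes. The other markers had -0.24 (Dcn) to 0.12 (Pdgfrb). The median of the list was -0.18, with 3 of 10 positive. The part of the stellate markers in the lectin values was not tested. Macrophage markers had a mean of 8.22 to 8.55 in Mdr2-/- floxed and 7.93 to 8.38 in Mdr2-/- Stat3Δhc liver. Of these 12, 2 were called lower (Adgre1 and Csf1r), against 3.9% of all genes.

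**Figure D3:**
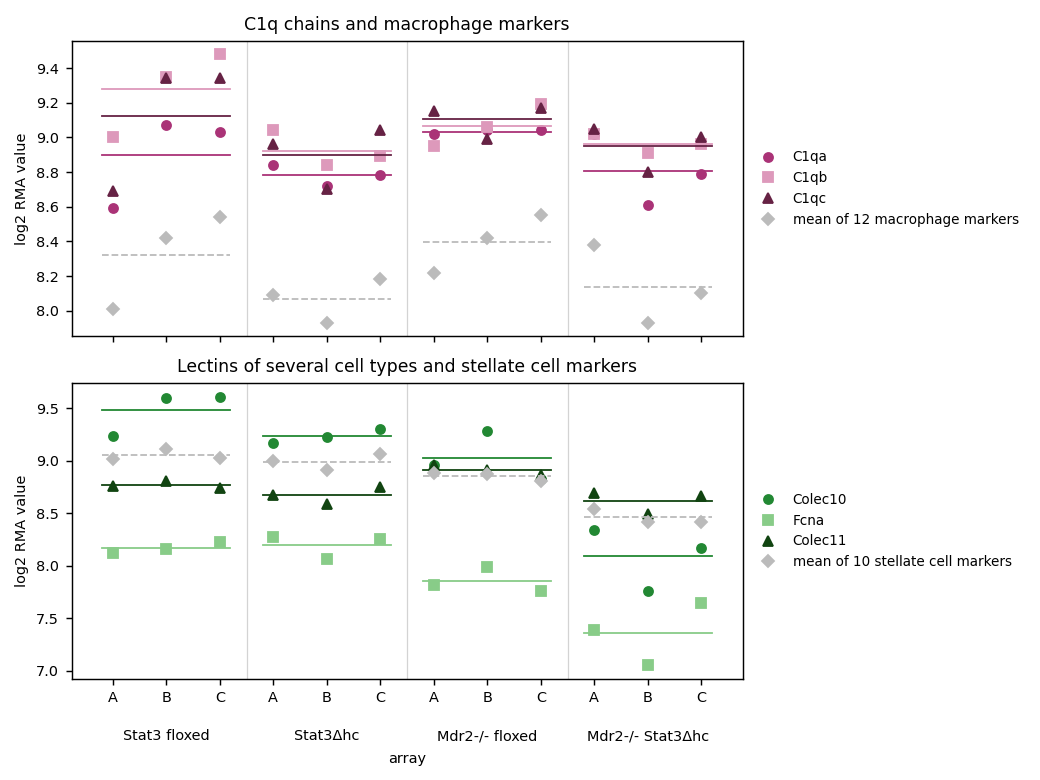
Log2 RMA values per array (points) and genotype means (lines) of the C1q chains with the mean of 12 macrophage markers (top) and of Colec10, Fcna and Colec11 with the mean of 10 stellate cell markers (bottom). Colec10, Fcna and the stellate mean are all lowest in the 3 Mdr2-/- Stat3Δhc arrays, and no C1q chain was called in any comparison. The stellate mean includes Des, which fell with Mdr2 loss as the skeletal muscle markers did. Heights of different genes are not comparable.

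The Xist pattern also differs in this comparison, since arrays B and C of Mdr2-/- Stat3Δhc are the only Y-linked arrays in it. Array A has the pattern of the 3 Mdr2-/- floxed arrays, and it also entered the test that called these members, so its values are given as a description. Its distance from the Mdr2-/- floxed mean was -1.04 for C4b, -0.65 for C8a, -0.62 for Mbl2, -0.51 for Serping1 and -0.68 for Colec10. A fit with the pattern as a covariate gives these same values. There C4b was called (limma adjusted p = 0.00515) and the other 8 were not (adjusted p between 0.115 and 0.583). Calls fell over the whole array in that fit, to 0.265% of all genes tested from 5.77%. The count of members was 4 (C4b, C8a, Colec10 and Mbl2) without array B of Mdr2-/- floxed liver (2.15% of all genes). It was also 4 when only these groups were fitted (1.76%).

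The 2 Stat3 comparisons share no array. Between them 9 of the 30 members (30%) were called in at least one and 3 (10%) in both, against 7.38% and 0.966% of all genes tested. A negative log2 change in both was seen for 22 members (73.3%) and for 28.5% of all genes. The difference of the 2 Stat3 effects was called for none of the members, against 10 of 13977 genes (0.0715%, with 0.0143% higher and 0.0572% lower). At an unadjusted p under 0.05, 5 of the 30 members (16.7%) and 2360 of all genes (16.9%) differed. C4b had the most negative difference, -0.81 (SE 0.15, limma adjusted p = 0.0715), followed by Colec10 at -0.68 (SE 0.22, adjusted p = 0.226), C6 at -0.55 (SE 0.16, adjusted p = 0.224) and Fcna at -0.52 (SE 0.18, adjusted p = 0.233). The difference for C4b passed the test without array A of floxed liver (-0.86, adjusted p = 0.0423), without array A of Mdr2-/- Stat3Δhc liver (-0.9, adjusted p = 0.0278) and with a trended robust prior (adjusted p = 0.0404). For Mbl2 and Serping1 the difference was -0.04 (SE 0.14) and 0.01 (SE 0.23), and for C8a it was 0.29 (SE 0.18, adjusted p = 0.397).

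Loss of Mdr2 in floxed liver raised 5 members and lowered 2. The percentage called over all genes was 12.8% (7.12% higher, 5.65% lower); median centring of the arrays turned the split of 995 higher and 790 lower to 673 and 888, with 4 members higher and 2 lower. The genes that rose were the hepatocyte-made Clu, C4bp and C6 and the leukocyte receptors C5ar1 and C3ar1, and those that fell were Mbl2 and C8g. The median log2 change was 0.1 over the 30 members and 0 over all genes. The 3 floxed and the 3 Mdr2-/- floxed arrays have opposite Xist patterns. With the pattern as a covariate Clu was the only member called, while calls over all genes fell to 0.73% from 12.8%.

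Loss of Mdr2 in Stat3Δhc liver raised 5 members and lowered 6. Over all genes 17.4% were called, with 6.9% higher and 10.5% lower. The split of 964 higher and 1467 lower became 635 and 2052 with median centring, where the members called were again 5 higher and 6 lower. The median log2 change was -0.01 over the members and -0.02 over all genes. Clu, C5ar1 and C3ar1 rose here too, with C8a and C9, and the genes that fell were Colec10, Fcna, Mbl2, C4b, C8g and Mbl1. With array A of Mdr2-/- Stat3Δhc left out, all arrays of this comparison share the Y-linked pattern. The same 11 members were called then, with 18.7% of all genes. The 2 Mdr2 comparisons share no array, and 5 members (Clu, C5ar1, C3ar1, Mbl2 and C8g; 16.7% of the 30) were called in both, against 6.44% of all genes tested.

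**Figure D4:**
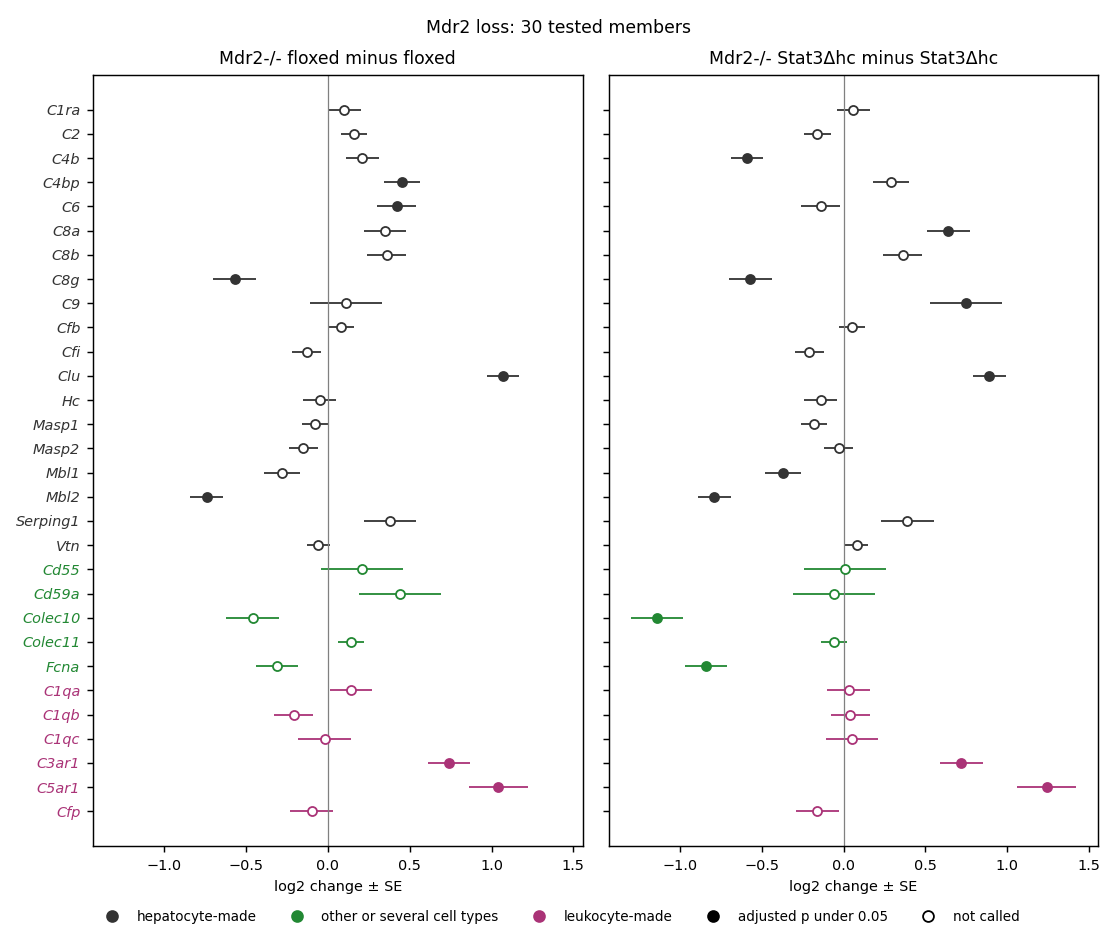
Log2 change with its standard error (horizontal axis) of the 30 tested members with Mdr2 loss, in floxed (left) and Stat3Δhc liver (right), 3 arrays against 3. Filled points passed the limma test at adjusted p under 0.05; Clu, C5ar1 and C3ar1 lie on the right of 0 and Mbl2 and C8g on the left in both panels.

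Clu, a secreted chaperone that binds the assembling membrane attack complex, read 11.8, 11.72 and 11.83 in floxed and 12.92, 12.67 and 12.96 in Mdr2-/- floxed liver, 2.09-fold higher (1.07, SE 0.1, limma adjusted p = 2.82e-05). It read 11.75, 11.75 and 11.79 in Stat3Δhc and 12.7, 12.47 and 12.79 in Mdr2-/- Stat3Δhc liver, 1.85-fold higher (0.89, SE 0.1, limma adjusted p = 0.000111). All 6 Mdr2-/- arrays were above all 6 others. The call in floxed liver was kept with the Xist pattern as a covariate (1, SE 0.18, adjusted p = 0.03).

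C5ar1, the receptor for the anaphylatoxin C5a, read 5.42, 5.97 and 5.69 in floxed and 6.72, 6.72 and 6.77 in Mdr2-/- floxed liver, 2.06-fold higher (1.04, SE 0.18, limma adjusted p = 0.00276). In Stat3Δhc liver it went from 5.15, 5.67 and 5.47 to 6.98, 6.77 and 6.27, 2.37-fold higher (1.24, SE 0.18, limma adjusted p = 0.000839). The values without the knockout lie around the 40th percentile of the arrays. C3ar1, the receptor for C3a, read 6.73, 7.01 and 6.87 against 7.56, 7.43 and 7.84 in floxed liver, 1.67-fold higher (0.74, SE 0.13, limma adjusted p = 0.00281). It read 6.6, 6.39 and 6.72 against 7.47, 7.12 and 7.27 in Stat3Δhc liver, 1.64-fold higher (0.72, SE 0.13, limma adjusted p = 0.00299). Both receptors were higher in each Mdr2-/- array than in each array without the knockout. With the Xist pattern as a covariate, the floxed comparison gave 0.58 (adjusted p = 0.507) for C5ar1 and 0.47 (adjusted p = 0.471) for C3ar1, while both calls in Stat3Δhc liver held.

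The other leukocyte-made members did not pass the test. C1qa, the A chain of C1q, read 8.59 to 9.07 in floxed, 8.72 to 8.84 in Stat3Δhc, 9.02 to 9.04 in Mdr2-/- floxed and 8.61 to 9.02 in Mdr2-/- Stat3Δhc liver. The log2 changes with Mdr2 loss were 0.14 and 0.03 for C1qa (SE 0.13), -0.21 and 0.04 for C1qb (SE 0.12) and -0.02 and 0.05 for C1qc (SE 0.16) in floxed and Stat3Δhc liver. Properdin (Cfp) had -0.1 and -0.16 (SE 0.13). The changes with Stat3 deletion ranged from -0.35 for C1qb (SE 0.12, limma adjusted p = 0.137, without the knockout) to -0.1 for the same gene on the knockout. C1qa, C1qb, C1qc and Cfp each read lowest among the floxed arrays in array A, where the mean of the 12 macrophage markers was also lowest of the 3 (8.01 against 8.42 and 8.54). Of these 12 markers 2 rose (Cd14 and Mpeg1) and 1 fell (Marco) with Mdr2 loss in floxed liver, against 7.12% and 5.65% of all genes. In Stat3Δhc liver 3 rose (Cd14, Mpeg1 and Cd68), against 6.9%. None of the 6 tested neutrophil markers was called in either Mdr2 comparison.

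Mbl2 fell with Mdr2 loss as well as with Stat3 deletion. In floxed liver the fall was 1.67-fold (-0.74, SE 0.1, limma adjusted p = 0.000586), and in Stat3Δhc liver 1.72-fold (-0.79, SE 0.1, limma adjusted p = 0.000313). Its order was therefore floxed above Stat3Δhc and Mdr2-/- floxed, whose arrays overlapped with each other, and these above Mdr2-/- Stat3Δhc. The Mbl2 call for Mdr2 loss in floxed liver was lost with the Xist pattern as a covariate (limma adjusted p = 0.116). Mbl1 read 9.6, 9.53 and 9.47 in floxed, 9.32, 9.06 and 9.35 in Stat3Δhc, 9.06, 9.37 and 9.32 in Mdr2-/- floxed and 8.98, 8.95 and 8.69 in Mdr2-/- Stat3Δhc liver. It followed the same order of means with overlap of the middle genotypes, and was called for Mdr2 loss in Stat3Δhc liver alone (-0.37, SE 0.11, limma adjusted p = 0.0419), a call kept in 5 of 12 fits that left out 1 array (-0.46 to -0.28).

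Colec10 was 2.21-fold lower with Mdr2 loss in Stat3Δhc liver (-1.14, SE 0.16, limma adjusted p = 0.000487), from 9.17, 9.23 and 9.3 to 8.34, 7.76 and 8.17. Fcna was 1.78-fold lower there (-0.84, SE 0.13, limma adjusted p = 0.00105), from 8.27, 8.06 and 8.25 to 7.39, 7.05 and 7.64. In floxed liver neither passed: Colec10 had -0.46 (SE 0.16, adjusted p = 0.0735) and Fcna -0.31 (SE 0.13, adjusted p = 0.135). Of the 10 stellate markers, 6 were called lower and 2 higher (Lum and Pdgfrb) in Stat3Δhc liver, against 10.5% and 6.9% of all genes. In floxed liver 3 were lower and 1 higher, against 5.65% and 7.12%. Des, which fell as the skeletal muscle markers did, is among the lower in both. Colec11 had 0.14 (SE 0.08) and -0.06 (SE 0.08) with Mdr2 loss and was not called.

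With Mdr2 loss C8g was the C8 chain that fell. C8g, a lipocalin-family subunit, read 11.19, 10.92 and 11.01 in floxed, 11.15, 11.02 and 11.22 in Stat3Δhc, 10.55, 10.61 and 10.25 in Mdr2-/- floxed and 10.54, 10.8 and 10.33 in Mdr2-/- Stat3Δhc liver. All 6 Mdr2-/- arrays were below the other 6, with a log2 change of -0.57 (SE 0.13) in both comparisons (limma adjusted p = 0.0127 in floxed and 0.0105 in Stat3Δhc liver). C8a had 0.35 (SE 0.13, adjusted p = 0.0966) in floxed liver and was 1.56-fold higher in Stat3Δhc liver (0.64, SE 0.13, limma adjusted p = 0.00529). C8b had 0.36 (SE 0.12) in both (adjusted p = 0.0639 and 0.0516). The C8g call in floxed liver was lost without array A of floxed or array C of Mdr2-/- floxed liver (-0.63 to -0.46 over the leave-one-out fits). It was also lost with the Xist pattern as a covariate (limma adjusted p = 0.44).

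C9, the pore-forming component, read 9.33, 8.46 and 9.12 in floxed, 8.74, 8.62 and 8.76 in Stat3Δhc, 9.24, 8.62 and 9.36 in Mdr2-/- floxed and 9.32, 9.68 and 9.36 in Mdr2-/- Stat3Δhc liver. It was 1.68-fold higher with Mdr2 loss in Stat3Δhc liver (0.75, SE 0.22, limma adjusted p = 0.0335), a call kept in 7 of 12 leave-one-out fits (0.63 to 0.81). In floxed and in Mdr2-/- floxed liver array B read well below A and C. C6, which joins C5b to start the complex, read 7.46, 7.34 and 7.53 in floxed and 7.84, 7.77 and 7.98 in Mdr2-/- floxed liver, 1.34-fold higher (0.42, SE 0.12, limma adjusted p = 0.0326). In Stat3Δhc liver it had -0.14 (SE 0.12, adjusted p = 0.413). The C6 call was lost with median centring and in 5 of 12 leave-one-out fits, and its value with the Xist pattern as a covariate was 0.11.

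C4bp read 11.49, 11.03 and 11.27 in floxed and 11.8, 11.58 and 11.76 in Mdr2-/- floxed liver, 1.37-fold higher (0.45, SE 0.11, limma adjusted p = 0.0182), and had 0.29 (SE 0.11, adjusted p = 0.0934) in Stat3Δhc liver. C4b had 0.21 (SE 0.1, adjusted p = 0.208) with Mdr2 loss in floxed liver and was 1.51-fold lower in Stat3Δhc liver (-0.59, SE 0.1, limma adjusted p = 0.00221). The contrast between these 2 values is the same quantity as the difference of the Stat3 effects given above, which was not called. Serping1 had 0.38 (SE 0.16, adjusted p = 0.161) and 0.39 (SE 0.16, adjusted p = 0.115) and was not called. The call for C4bp was lost in 4 of 12 leave-one-out fits (0.34 to 0.57), and with the Xist pattern or the pancreas markers as a covariate. Leaving out 1 array gave 4 to 8 called members for Mdr2 loss in floxed liver (7.88% to 15.4% of all genes). It gave 4 (Clu, C5ar1, C3ar1 and Mbl2) without array C of Mdr2-/- floxed (8.05%). In Stat3Δhc liver it gave 9 to 12 (8.27% to 18.7%).

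The members called in no comparison were 13. Among the hepatocyte-made genes they were the classical pathway protease C1ra, C2, Hc, C8b, Cfb, Masp2 and Vtn. Vtn varied least, from 12.9 to 13.15 over the 12 arrays. The membrane-bound inhibitors Cd55 and Cd59a, which protect host cells, varied more between arrays, from 6.36 to 7.56 and from 7.63 to 8.79. Their log2 changes had an SE of 0.25, against at most 0.22 for the other members in these comparisons. The C1q chains and Cfp make up the rest.

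Of 31 further genes of the pathway, 26 had a cluster and 20 were tested. Stat3 deletion lowered 2 of these in each comparison and raised none. Over all genes 1.07% were lower without the knockout and 3.9% on it. Apcs, serum amyloid P, read 10.55, 10.9 and 10.86 in floxed and 9.65, 9.89 and 9.74 in Stat3Δhc liver, 2.02-fold lower (-1.01, SE 0.16, limma adjusted p = 0.00594). It was 2.39-fold lower on the knockout (-1.26, SE 0.16, limma adjusted p = 0.00156), the other gene there being C4a. Crp, the C-reactive protein gene, was 1.39-fold lower without the knockout (-0.47, SE 0.09, limma adjusted p = 0.0157) and had -0.23 (SE 0.09, adjusted p = 0.125) on it. Both are pentraxins, which bind C1q.

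With Mdr2 loss 2 of the 20 rose and 2 fell in floxed liver, against 7.12% and 5.65% of all genes. In Stat3Δhc liver 3 rose and 2 fell, against 6.9% and 10.5%. Crp rose by 0.43 (SE 0.09, limma adjusted p = 0.00714) and by 0.67 (SE 0.09, limma adjusted p = 0.000364). C1rl, a C1r-like protease gene, fell in both (-0.47 and -0.35). C1s2, a C1s gene, was higher (0.42, SE 0.09) and Susd4, a complement inhibitor, lower (-0.39, SE 0.1) in floxed liver alone. In Stat3Δhc liver the second C5a receptor C5ar2 (0.61, SE 0.12, limma adjusted p = 0.00447) and Itgax, the alpha chain of complement receptor CR4 (0.81, SE 0.12, limma adjusted p = 0.00095), were higher and C4a was lower (-0.39, SE 0.09, limma adjusted p = 0.0107). Itgax read 5.3 to 5.43 in Stat3Δhc liver and Susd4 5.04 to 5.41 in Mdr2-/- floxed liver. These values lie below the 40th percentile of the arrays (5.46 to 5.63).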

How the data were processed

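Total RNA of whole liver was hybridised to 12 Affymetrix arrays. The deposited log2 values come from RMA (no version given) run by the authors, per the submitters' processing notes; their range was 1.37 to 14.54 and the array medians 6.01 to 6.14. Arrays were grouped by title, since in the source name field the labels of both Mdr2-/- genotypes are exchanged, and the Stat3 signal followed the title. The platform annotation gives 1 gene for 21789 of 35556 clusters, several for 1621 and none for 12146; 999 genes had more than 1 cluster. Genes above the 40th percentile of their array in at least 3 arrays were tested with limma 3.58.1 (R 4.3.3; lmFit and eBayes on all 12 arrays, 1 mean per genotype, 8 residual degrees of freedom). P-values were adjusted by Benjamini-Hochberg over 13977 genes at a threshold of 0.05, for 5 comparisons. The median SE was 0.11, or 0.155 where both Stat3 effects were compared; 3 arrays per genotype limit the precision. The script was tested on simulated data.

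Every member called is named with its values, and every further pathway gene called is named. The members, gene lists and markers were chosen with earlier results of these data known. Alternatives were no filter or the 60th percentile, the mean of a gene's clusters, cyclic loess, median centring, trended robust eBayes, array weights, only the groups compared, the letter as a block, the Xist and Y-linked pattern as a covariate, and each array left out; the exocrine pancreas marker mean as a covariate was chosen after seeing the data. Same-letter arrays did not deviate together (correlations of deviations -0.41 to 0.37 in 18 pairs). Plots were made in Python 3.11.15 (matplotlib 3.10.9).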

Additional observations from a re-analysis of the deposited data

How the results depend on the processing

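No called member changed sign under any alternative. For Stat3 deletion without the knockout (3 members called), the 60th percentile filter, cyclic loess and the trended robust prior each gave 6. These fits called 4.87%, 3.18% and 3.44% of all genes, against 2.58% in the reported fit. Array weights gave 15, where 21.1% of all genes were called. Leaving out 1 array gave 1 to 6 (0.495% to 5.4% of all genes). For Stat3 deletion on the knockout (9, with 5.77% of all genes), array weights gave 16 (16.4% of all genes). Fitting only the groups compared gave 4 (1.76%) and the Xist pattern as a covariate 1 (0.265%). Leaving out 1 array gave 4 to 11 (2.15% to 10.6%). For Mdr2 loss in floxed liver (7, with 12.8% of all genes) the covariate gave 1 (0.73%) and leaving out 1 array 4 to 8 (7.88% to 15.4%). For Mdr2 loss in Stat3Δhc liver (11, with 17.4% of all genes) array weights gave 17 (41.7%) and leaving out 1 array 9 to 12 (8.27% to 18.7%). For the test between both Stat3 effects (0 members, with 0.0715% of all genes), the trended robust prior gave 1 (C4b, with 0.165%). Array weights gave 4 (C4b, C6, Colec10 and Fcna, with 4.06%). Leaving out 1 array gave 0 to 1 (at most 0.459%). Except for the fits named here, the counts stayed within 1.5 times the reported ones.

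Arrays of the same letter share only that letter, and with the letter as a replicate block the counts were 3, 7, 7, 10 and 0 in the same order. Over all genes 1.7%, 3.38%, 10.4%, 13.3% and 0.0215% were called there. With the pancreas markers as a covariate the counts were 3, 7, 5, 9 and 0, with 2.83%, 4.86%, 7.25%, 6.75% and 0.0143% of all genes. Calls kept in all settings were C8a (Stat3 deletion without the knockout), C4b (on it), Clu (Mdr2 loss in floxed liver) and 9 of 11 in Stat3Δhc liver, all but C9 and Mbl1. The Xist covariate rests on array A of Mdr2-/- Stat3Δhc liver against B and C, so other traits of array A cannot be told apart from it. The cause of the other changes in count was not tested. Values near the 40th percentile, as for C5ar1, Itgax and Susd4, are close to background.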
